A study of Mus musculus with 27 samples.

Results

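The glycolysis and hypoxia response genes are a set of 40 mouse genes that make glucose into pyruvate and lactate or are known targets of the hypoxia-inducible factors. They were chosen by symbol, not by a cut-off on a measured value, but with earlier results of these data known. All 40 were among the 24062 symbols of the count table. Bulk RNA of 27 libraries from C57BL/6 mice was sequenced in a study of Foxm1, a forkhead-family regulator best known for activating mitotic genes. Mouse embryonic fibroblasts, primary cells grown out of embryos, were taken while dividing asynchronously, at early passage and about 90% confluence. The labels KO and KO-NTD, with their own WT, belong to experiment 1. Experiment 2 had the labels WT and Het, each also with NTD, and lungs of mice aged 10 days were taken whole and labelled WT or Het. Each of these 9 groups had 3 libraries. What NTD stands for and which part of Foxm1 was altered are not explained in the labels, nor is it said whether libraries of a group were from separate embryos, animals or cultures. The p-values below therefore measure only the spread between these libraries, which may be technical.

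Glycolysis splits glucose into pyruvate in the cytosol, and lactate dehydrogenase with the monocarboxylate transporters disposes of that pyruvate as lactate. When oxygen is scarce, the alpha subunits of the hypoxia-inducible factors (HIF) escape prolyl hydroxylation and destruction, pair with Arnt and bind short ACGTG or GCGTG motifs near many of these genes. In fibroblasts the same programme reaches collagen prolyl hydroxylases, growth factors of blood vessels and receptors that clear mitochondria.

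Total counts were 47380829 to 69517834 per library in experiment 1, 30247046 to 46625753 in experiment 2 and 29730693 to 50326730 in lung. Levels are given as CPM, the count scaled to a fixed library size (TMM) within each experiment or tissue, so CPM are not compared across experiments except in a joint fit. Foxm1 itself stood at 139, 149 and 152 CPM in KO libraries, no lower than WT of experiment 1 at 134, 140 and 136 CPM. In experiment 2 it was at 126, 131 and 130 CPM in the libraries labelled Het, below WT at 145, 147 and 149 CPM, at 0.881-fold with an edgeR adjusted p of 0.249, which misses the threshold of 0.05. Groups are therefore called by their labels throughout. Summed fibroblast markers were at 25260 to 42500 CPM in all fibroblast libraries and alveolar markers at 19510 to 30590 CPM in the lungs, against 61.7 to 125 CPM in fibroblasts. Within experiment 1, library 1 labelled KO and library 2 labelled KO-NTD stood apart. Their 11 macrophage markers summed to 12 and 9.49 CPM against 32.1 to 360 CPM in the other 7 libraries, and their skeletal muscle markers to 69.5 and 63.4 CPM against 10.1 to 23.1 CPM.

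Levels per length of transcript (RPKM, CPM divided by kilobases of exon) ordered the 40 genes within WT. In WT fibroblasts of experiment 2 the highest were Gapdh at 581 ± 49.8 RPKM (SD, n = 3) and Pkm, pyruvate kinase, at 501 ± 55.3 RPKM, and the 2 means differed by less than the sum of their SDs. Ldha (lactate dehydrogenase A) at 379 ± 33.2, Pgk1 (phosphoglycerate kinase) at 353 ± 29.3 and Pgam1 (phosphoglycerate mutase) at 337 ± 34.1 RPKM came next, and the means of any 2 of these 3 differed by less than the sum of their SDs. Aldoa (aldolase A) at 248 ± 27.2 and Tpi1 (triose phosphate isomerase) at 193 ± 16.5 RPKM followed, and every other member was at or below 74.5 RPKM. The lowest were Car9 (1.06), Aldoc (0.810) and Eno1 (0.0485 RPKM). The 40 genes together held 1.18% ± 0.0847 (SD, n = 3) of the counts in WT fibroblasts of experiment 2 and 1.05% ± 0.0284 in WT of experiment 1, but 0.415% ± 0.0263 in WT lung.

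Several members have near-identical copies elsewhere in the genome, and their counts are uncertain because a counting step could have split them. In GENCODE M21 (GRCm38, the mm10 assembly), the share of 50-base stretches of the longest transcript that recur in other annotated genes was 72.2% for Eno1, 68.0% for Pgk1, 48.9% for Bnip3, 41.5% for Pgam1, 30.5% for Pkm, 27.2% for Gapdh and 23.4% for Bnip3l. It was 16.6% for Ldha, 13.5% for Aldoa, 10.2% for Gpi1 and 7.5% for Tpi1, and at most 0.6% for the other 29 members. Eno1, alpha-enolase, was listed at 0 to 21 counts in every library, so nothing is read from it. The library kit does not mark strand. Exons of Aldoa, Ankrd37, Gapdh, Gys1, Hk1, Pfkm, Pfkp and Tpi1 overlap a gene on the opposite strand, so reads within an overlap cannot be told apart. The lengths of these overlaps were not measured.

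Promoters are shown for the 3 members with the highest ratio of Het to WT in experiment 2 (Egln3, Slc16a3 and Bnip3), for P4ha2, which had the lowest adjusted p there, and for Gys1, which was also among the lowest adjusted p but whose window holds no core. The choice was made after the values were seen, to show windows with and without the HIF core motif. RefSeq promoter windows (GRCm38.p6) matched 38 of the 40 symbols. The search was for ACGTG or GCGTG on both strands in the 250 bases before each start site, so a CACGTG counts on both strands. At least 1 core lay in a window of 32 of 38 members (84.2%), against 41.5% of 27025 genes, and at least 2 cores in 57.9% against 18.7%. Members had 56 windows for 38 genes and all genes 32851 windows, so members had more windows per gene. The windows were not matched for base composition, and a match is a description of letters, not a bound site. Each sequence is the upstream window, 5′ to 3′ on the gene's strand, with the cores in capitals as read on that strand (CACGT and CACGC are cores of the opposite strand). The Bnip3 window is chr7:138909507-138909756 on the minus strand, Egln3 is chr12:54203875-54204124 (minus), P4ha2 is chr11:54100674-54100923 (plus), Slc16a3 is chr11:120948817-120949066 (plus) and Gys1 is chr7:45434589-45434838 (plus).
Bnip3: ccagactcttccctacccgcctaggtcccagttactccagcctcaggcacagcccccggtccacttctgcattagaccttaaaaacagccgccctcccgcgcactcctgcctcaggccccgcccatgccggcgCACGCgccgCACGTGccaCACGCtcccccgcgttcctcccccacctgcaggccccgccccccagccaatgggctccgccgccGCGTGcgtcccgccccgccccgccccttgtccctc
Egln3: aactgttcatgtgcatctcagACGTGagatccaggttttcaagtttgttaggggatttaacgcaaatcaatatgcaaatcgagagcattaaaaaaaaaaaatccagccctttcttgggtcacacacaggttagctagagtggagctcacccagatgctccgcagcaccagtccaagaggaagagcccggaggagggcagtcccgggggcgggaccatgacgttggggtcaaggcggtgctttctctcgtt
P4ha2: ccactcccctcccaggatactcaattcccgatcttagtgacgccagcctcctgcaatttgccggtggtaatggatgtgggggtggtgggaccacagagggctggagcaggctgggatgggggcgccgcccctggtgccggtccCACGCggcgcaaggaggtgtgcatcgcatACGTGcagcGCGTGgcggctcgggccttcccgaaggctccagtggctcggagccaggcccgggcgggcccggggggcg
Slc16a3: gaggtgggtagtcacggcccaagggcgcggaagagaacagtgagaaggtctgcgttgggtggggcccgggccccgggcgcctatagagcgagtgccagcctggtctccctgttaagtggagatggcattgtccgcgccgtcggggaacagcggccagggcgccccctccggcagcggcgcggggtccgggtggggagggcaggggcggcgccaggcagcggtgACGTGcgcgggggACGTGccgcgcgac
Gys1: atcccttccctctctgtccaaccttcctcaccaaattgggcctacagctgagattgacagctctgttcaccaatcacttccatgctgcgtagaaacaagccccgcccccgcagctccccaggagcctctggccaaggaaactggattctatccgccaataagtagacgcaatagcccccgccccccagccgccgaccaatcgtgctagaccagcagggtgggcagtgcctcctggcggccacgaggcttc
In GENCODE M21 the genes span chr7:138890836-138909519 (Bnip3), chr12:54178981-54203860 (Egln3), chr11:54100095-54131665 (P4ha2), chr11:120948480-120960868 (Slc16a3) and chr7:45434844-45456619 (Gys1), so the RefSeq windows of P4ha2 and Slc16a3 lie within the annotated gene. The Bnip3 window held 5 cores, P4ha2 3, Slc16a3 2, Egln3 1 and Gys1 0. A core was in the window of 22 of the 25 matched members that passed the test in Het against WT (not in Gpi1, Tpi1 and Gys1) and of 10 of the 13 that did not (not in Eno2, Emb and Gbe1).

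The libraries labelled Het of experiment 2 were compared with WT of that experiment, a comparison that asks how a Foxm1-altered genotype reads out in proliferating fibroblasts. Of the 40 genes, 26 were higher in the libraries labelled Het and none was lower (edgeR quasi-likelihood test, Benjamini-Hochberg adjusted p under 0.05 over all 14314 genes tested). That is 65% of the members, where 16.5% of all genes passed the test, 7.89% as higher and 8.61% as lower. The median log2 fold change was 0.27 over the 40 genes and 0.01 over all genes, 34 of 40 were above 0, and in 30 the 3 Het values all lay above the 3 WT values (17.1% of all genes). By role, the members higher were 3 of 3 in oxygen sensing (Hif1a, Egln1, Egln3), 6 of 9 in glucose entry and upper glycolysis, 3 of 7 in lower glycolysis, 1 of 2 in fructose 2,6-bisphosphate control and 2 of 2 in pyruvate fate (Ldha, Pdk1). They were 1 of 3 in lactate transport (Slc16a3, not Slc16a1 or Emb), 1 of 2 in glycogen synthesis and 2 of 2 among mitophagy receptors (Bnip3, Bnip3l). In the endoplasmic reticulum 3 of 3 were higher (P4ha1, P4ha2, Ero1l), among secreted and surface products 1 of 3 (Vegfa, not Adm or Car9) and among other HIF targets 3 of 4. Of the 26 calls, 20 to 25 remained when 1 library was left out and 19 remained whichever it was. Those lost without some library were Egln1, Gpi1, Tpi1, Pgam1, Pfkfb3, Ankrd37 and Kdm3a. With the 2 groups fitted alone, 17 passed.

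**Figure D1:**
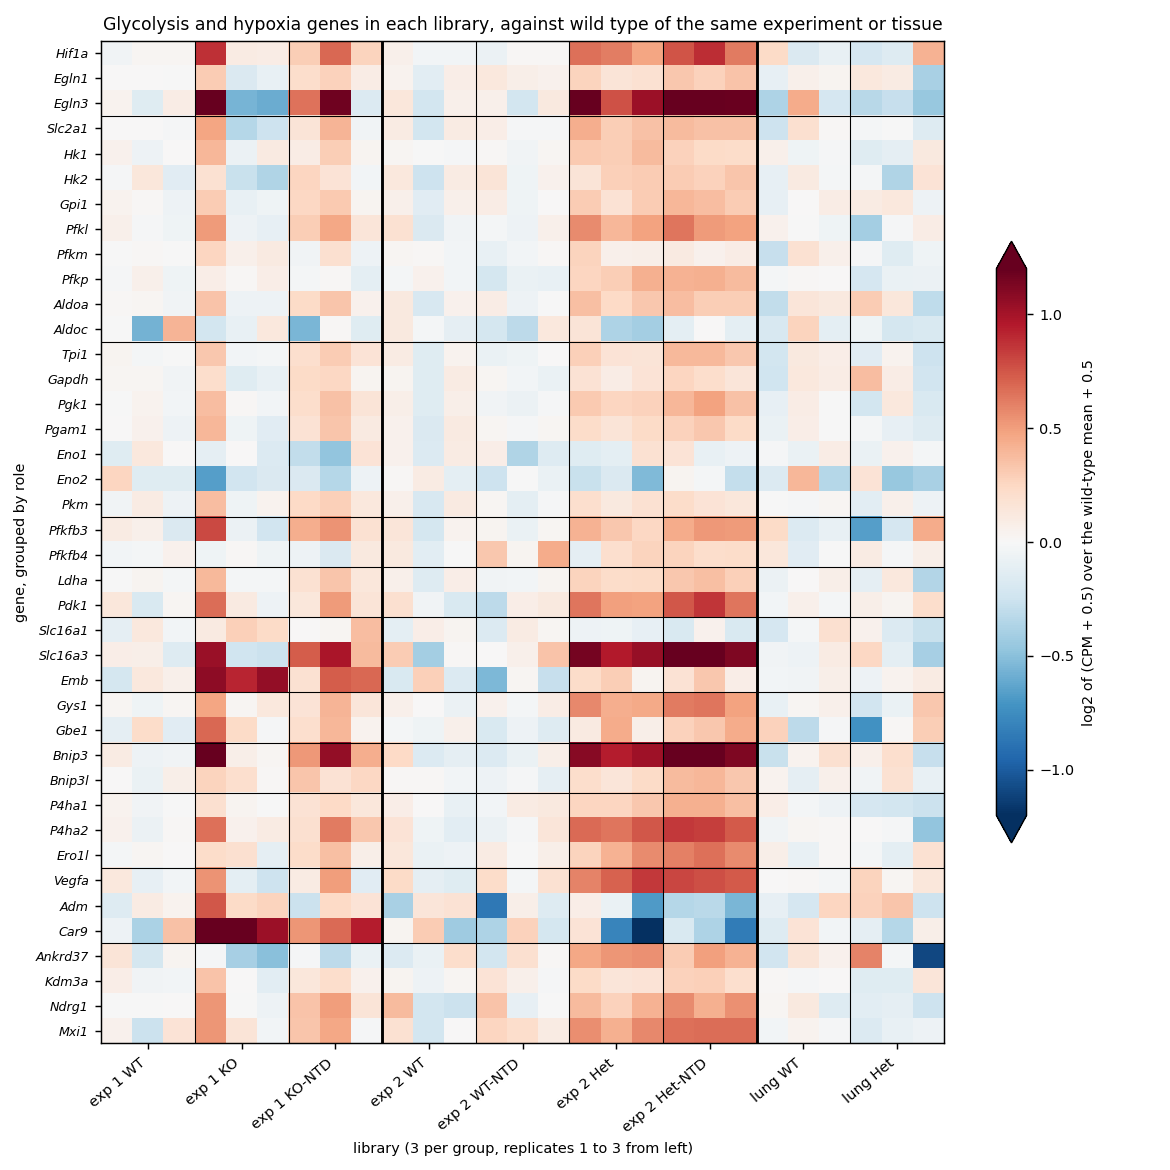
Each row is 1 of the 40 genes, grouped by role, and each column 1 library (3 per group, replicates 1 to 3 from left). Colour is log2 of (CPM + 0.5) over the mean of WT in the same experiment or tissue. Rows such as Bnip3, Egln3 and Slc16a3 are dark red in all 6 libraries labelled Het or Het-NTD, while in experiment 1 the red columns are library 1 of KO and library 2 of KO-NTD, and the lung columns are pale.

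Among the oxygen sensors, all 3 members were higher in the libraries labelled Het. Hif1a, the oxygen-regulated subunit of HIF-1, was at 312, 302 and 275 CPM in the libraries labelled Het and at 206, 194 and 194 CPM in WT. The groups did not overlap, and Hif1a was 1.5-fold higher (95% interval 1.36 to 1.65, edgeR adjusted p = 0.000249). Egln3, a prolyl hydroxylase that is itself a HIF target, was at 21.2, 15.1 and 18.3 CPM against 9.63, 7.37 and 9.07 CPM. Its ratio of 2.10 (1.70 to 2.58, edgeR adjusted p = 0.000493) was the highest of the 40. Egln1, the main oxygen sensor among the prolyl hydroxylases, differed least of the 3, at 1.15-fold (1.06 to 1.25, edgeR adjusted p = 0.0246), and lost the call when WT library 2, Het library 1 or Het library 3 was left out.

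Glucose entry and upper glycolysis had 6 of 9 members higher. Slc2a1 (GLUT1, the basal glucose transporter) was 1.29-fold higher (1.15 to 1.43, edgeR adjusted p = 0.00615). Hk1, a hexokinase, was at 114, 112 and 119 CPM in the libraries labelled Het and at 92.8, 91.1 and 90.3 CPM in WT. The 3 WT values lay close together, and the ratio was 1.25 (1.19 to 1.33, edgeR adjusted p = 0.000262). Of the phosphofructokinases, which commit sugar to glycolysis, Pfkl was at 309, 276 and 291 against 237, 185 and 203 CPM (1.4-fold, 1.24 to 1.58, edgeR adjusted p = 0.00239). Pfkp was at 63.8, 65.4 and 71.8 against 52.5, 55.1 and 52.2 CPM (1.26-fold, 1.16 to 1.36, edgeR adjusted p = 0.00165). Both isoforms were above WT in every library, while the muscle isoform Pfkm, at 1.10-fold (1.01 to 1.2), did not pass (edgeR adjusted p = 0.127). Gpi1 and Aldoa were 1.2-fold and 1.24-fold higher. Hk2, the inducible hexokinase, was at 76.2 to 84.4 CPM against 57.5 to 74.6 CPM without overlap, but with a ratio of 1.19 (1.04 to 1.36) it was not called (edgeR adjusted p = 0.0703), and the low Aldoc was at 0.859-fold (0.621 to 1.19).

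In lower glycolysis the differences were smaller. Pgk1 was 1.22-fold (1.12 to 1.32, edgeR adjusted p = 0.00512), Tpi1 1.15-fold (edgeR adjusted p = 0.0324) and Pgam1 1.15-fold higher (edgeR adjusted p = 0.0392). The last of these passed with values of 779, 741 and 782 CPM against 693, 591 and 719 CPM. Tpi1 and Pgam1 lost the call without WT library 2 or any 1 of the Het libraries. Gapdh at 1.10-fold (1.01 to 1.2, edgeR adjusted p = 0.107) and Pkm at 1.12-fold (1.01 to 1.24, edgeR adjusted p = 0.116) did not pass. Eno2, the neuronal enolase, pointed the other way: it was at 8.76, 9.36 and 7.21 CPM in the libraries labelled Het, all below WT at 10.8, 11.4 and 9.73 CPM, at 0.795-fold (0.660 to 0.958, edgeR adjusted p = 0.0889). It was the only member whose 3 values all lay below WT (16.8% of all genes).

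Among genes of fructose 2,6-bisphosphate control, pyruvate fate and lactate transport, 4 of 7 were higher. Pfkfb3, which makes the activator fructose 2,6-bisphosphate, was 1.26-fold higher (1.12 to 1.42, edgeR adjusted p = 0.0141), and its relative Pfkfb4 was at 1.10-fold (0.911 to 1.32) without passing. Ldha was 1.18-fold higher (1.09 to 1.28, edgeR adjusted p = 0.011), and Pdk1, a kinase that holds pyruvate back from oxidation in mitochondria, 1.46-fold higher (1.21 to 1.75, edgeR adjusted p = 0.0121). Slc16a3 (MCT4, the lactate exporter of glycolytic cells) was at 284, 249 and 266 CPM in the libraries labelled Het against 159, 96.9 and 129 CPM in WT. The lowest Het value was far above the highest WT value, and the ratio was 2.08 (1.63 to 2.64, edgeR adjusted p = 0.00221). Slc16a1 (MCT1), at 0.951-fold (0.844 to 1.07), and Emb (embigin, a partner protein of monocarboxylate transporters), at 1.14-fold (0.890 to 1.46), overlapped WT.

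Of the 2 glycogen genes, Gys1 (glycogen synthase) was at 120, 109 and 111 CPM against 83.9, 80.7 and 76.4 CPM. It was 1.41-fold higher without overlap (1.29 to 1.53, edgeR adjusted p = 0.000261), while the branching enzyme Gbe1 was at 1.17-fold (0.988 to 1.39, edgeR adjusted p = 0.194). Bnip3, a receptor that tags mitochondria for autophagy, was at 87.8, 79.1 and 83.0 CPM in the libraries labelled Het and at 48.2, 36.3 and 38.0 CPM in WT. The groups were well apart, with a ratio of 2.04 (1.73 to 2.41, edgeR adjusted p = 0.000261). Its relative Bnip3l was 1.15-fold higher (1.08 to 1.22, edgeR adjusted p = 0.00839).

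The collagen prolyl hydroxylases and the endoplasmic reticulum oxidase all passed. P4ha2, which hydroxylates collagen prolines, was at 206, 201 and 216 CPM in the libraries labelled Het and at 144, 124 and 118 CPM in WT. It had the lowest adjusted p of the 40 (1.62-fold, 1.45 to 1.81, edgeR adjusted p = 0.000172). P4ha1 was 1.21-fold higher (1.12 to 1.31, edgeR adjusted p = 0.00381), and Ero1l, which re-oxidises disulfide isomerase, 1.34-fold higher (1.2 to 1.5, edgeR adjusted p = 0.00282).

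Secreted and surface products differed among themselves. Vegfa, the main growth factor of blood vessels, was at 174, 188 and 207 CPM against 134, 107 and 104 CPM (1.65-fold, 1.42 to 1.92, edgeR adjusted p = 0.00106). Adm, the peptide adrenomedullin, was at 45.1, 40.3 and 26.4 CPM against 32.4, 47.1 and 48.1 CPM, and Car9, a carbonic anhydrase, at 2.79, 1.2 and 0.751 CPM against 2.5, 3.13 and 1.68 CPM. Both overlapped WT, with ratios of 0.878 (0.581 to 1.33) and 0.653 (0.342 to 1.25), so not all textbook HIF targets passed as higher. The direction of these 2 is open, as both intervals include 1. Without Het library 1, Car9 passed as lower (log2 fold change -1.31, edgeR adjusted p = 0.0461). Of the remaining targets, the MYC antagonist Mxi1 was 1.45-fold higher (1.26 to 1.67, edgeR adjusted p = 0.00317). The histone demethylase Kdm3a was 1.13-fold (edgeR adjusted p = 0.0346) and the low Ankrd37 1.56-fold higher (1.16 to 2.09, edgeR adjusted p = 0.042). With 1 library left out, Kdm3a kept its call only without WT library 1 and Ankrd37 only without WT library 3. Ndrg1 overlapped WT at 1.28-fold (0.993 to 1.66, edgeR adjusted p = 0.172).

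**Figure D2:**
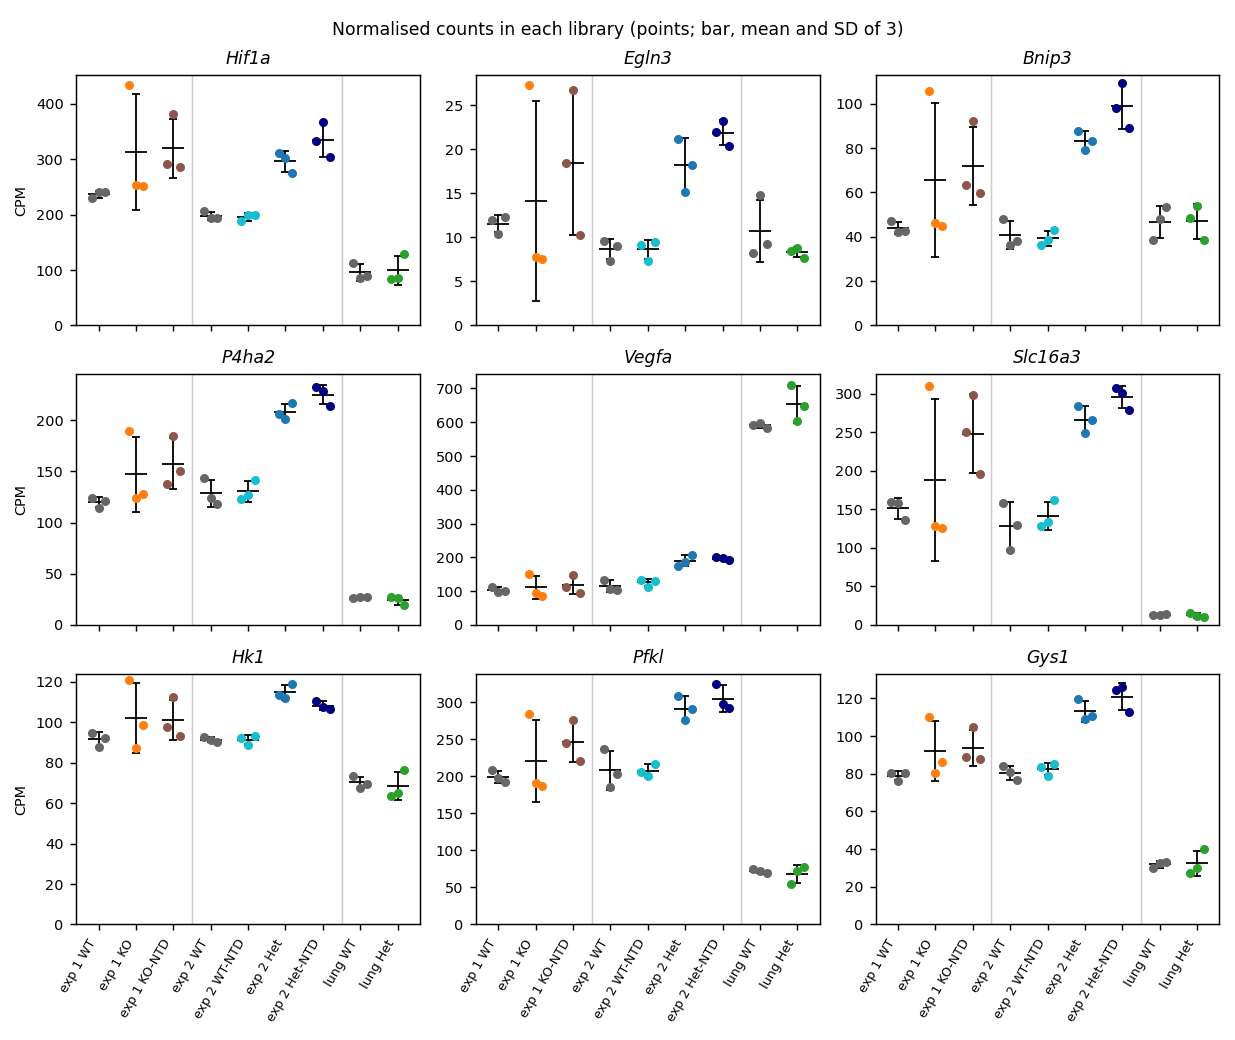
CPM of 9 members in each library (points, y axes from 0), with the mean and SD of 3, for all 9 groups; grey lines separate the 2 fibroblast experiments and the lungs, which were normalised separately. For Hif1a, the 3 Het points at 275 to 312 CPM lie above the WT points at 194 to 206 CPM, while in KO 1 library at 435 CPM lies above the other 2 at 252 to 254 CPM.

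Markers of some cell types also differed between these groups. The 11 macrophage markers summed to 158 to 193 CPM in WT, 66.3 to 156 CPM in WT-NTD, 11.2 to 65.1 CPM in Het and 11.6 to 16.7 CPM in Het-NTD. In Het against WT, 9 of the 11 were lower (8.61% of all genes) and none was at 0 in all libraries of a group. Skeletal muscle markers summed to 9.96 to 19.7 CPM in WT and 11 to 41.3 CPM in WT-NTD. Their sums were 40.8 to 62.3 CPM in Het and 35.9 to 46.5 CPM in Het-NTD. Of 4 tested, 2 were higher in Het than in WT (7.89% of all genes). Of 8 fibroblast markers 1 was lower and the sums overlapped (37650 to 40900 CPM in Het, 29100 to 38880 CPM in WT). Of 3 endothelial markers tested 1 was higher and 1 lower, at low sums (4.73 to 6.20 CPM in Het, 4.21 to 12.7 CPM in WT). Among 5 neural markers tested 1 was lower, and no alveolar, erythroid or adipocyte marker was called. In bulk samples, fewer cells of a type and less RNA per cell cannot be told apart. The part of any cell type in the members' differences was not tested.

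**Figure D3:**
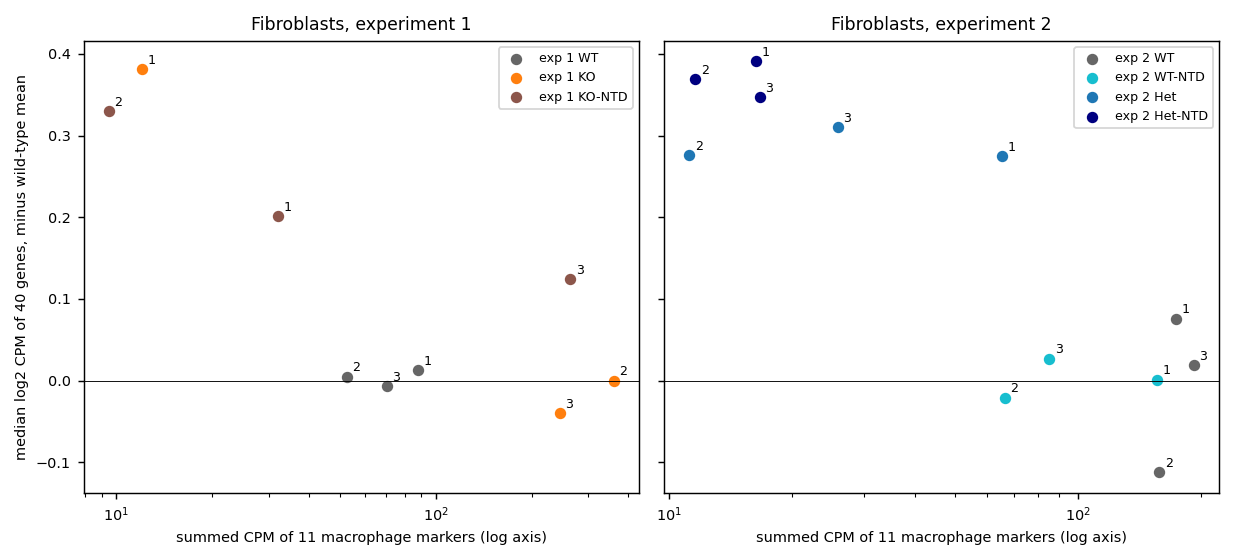
Median log2 level of the 40 genes over the WT mean (y) against the summed CPM of 11 macrophage markers (x, log axis) in each fibroblast library; numbers are replicates. In experiment 2 all 6 libraries labelled Het or Het-NTD lie at 0.275 or above and all 6 WT and WT-NTD libraries at 0.076 or below; in experiment 1 library 1 of KO is at 0.381 while KO libraries 2 and 3 are at 0 and -0.04.

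The same genotype labels were set side by side in cells with NTD, using libraries that the first comparison did not use but within the same fit. Against WT-NTD, 27 of the 40 genes were higher in Het-NTD and none lower (67.5%, where 11.5% of all genes passed edgeR's test and 5.24% as higher, 6.24% as lower). The median log2 fold change was 0.42, and 33 members had groups apart (16.3% of all genes). The calls shared 25 genes with those of Het against WT, which is 96.2% of the 26 and 92.6% of the 27. Ankrd37 was called in Het alone, and Gapdh and Gbe1 in Het-NTD alone. Across the 40 genes the log2 fold changes of both comparisons had Pearson's r = 0.91 and Spearman's rho = 0.86, a description over genes that share libraries and depth within each comparison.

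Hif1a was at 334, 366 and 305 CPM in Het-NTD against 188, 200 and 200 CPM in WT-NTD, 1.71-fold higher (1.55 to 1.89, edgeR adjusted p = 2.7e-05). Bnip3 was at 98.1, 109 and 89.1 against 36.4, 38.6 and 42.9 CPM, 2.52-fold higher (2.13 to 2.97, edgeR adjusted p = 4.2e-05), and P4ha2 at 232, 228 and 214 against 123, 127 and 142 CPM, 1.72-fold higher (1.54 to 1.92, edgeR adjusted p = 5.3e-05). Their groups were far apart. Bnip3l was at 82.0, 83.0 and 78.5 against 60.1, 62.3 and 58.4 CPM (1.35-fold, 1.26 to 1.43), and Pfkp at 71.1, 71.9 and 69.4 against 46.0, 50.34 and 50.04 CPM (1.45-fold, 1.34 to 1.57), both with an edgeR adjusted p of 6.8e-05. Egln3 (2.54-fold) and Slc16a3 (2.09-fold) were again among the highest ratios. Macrophage markers moved here too, with 10 of 11 lower in Het-NTD (6.24% of all genes).

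**Figure D4:**
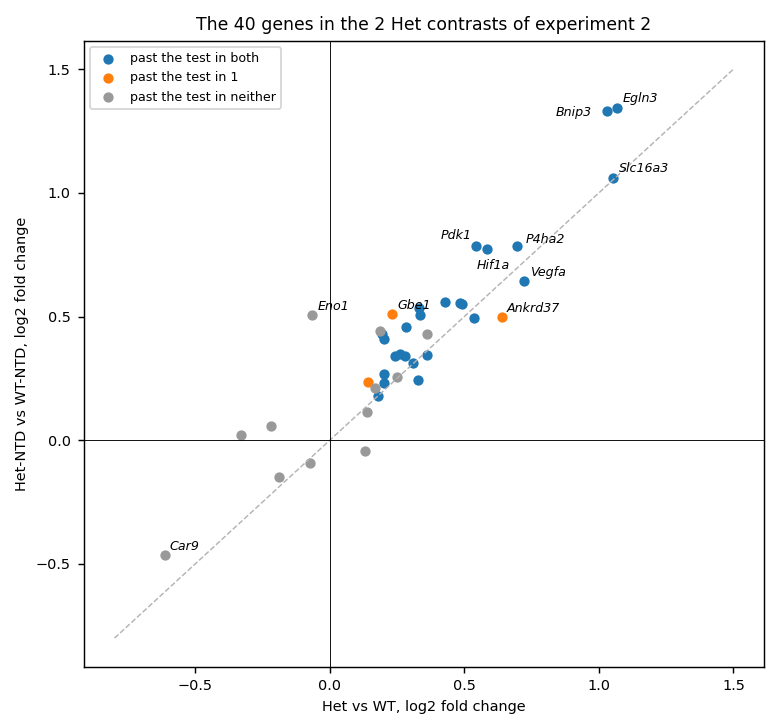
Log2 fold change of each of the 40 genes in Het against WT (x) and in Het-NTD against WT-NTD (y) of experiment 2; the dashed line marks equal values and colour the edgeR calls. The 25 genes called in both lie in the upper right, with Bnip3, Egln3 and Slc16a3 above 1 on both axes, and Car9 lies lowest in both.

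WT-NTD against WT had a median log2 fold change of -0.008, with no member called (edgeR, 0.014% of all genes called). At an unadjusted edgeR p under 0.05 there were 2 members (7.37% of all genes), and DESeq2 called 0 (0.147% of all genes). The lowest p-values were those of Pfkp at 46.0, 50.34 and 50.04 CPM against 52.5, 55.1 and 52.2 CPM (0.917-fold, edgeR adjusted p = 0.663), Pfkfb4 at 16.4, 13.3 and 17.9 against 14.1, 11.9 and 13.0 CPM (1.22-fold, edgeR adjusted p = 0.664) and Mxi1 at 15.8, 15.3 and 14.1 against 15.0, 11.2 and 13.2 CPM (1.15-fold, edgeR adjusted p = 0.676). Foxm1 was 2.36-fold higher in the same comparison (edgeR adjusted p = 0.00137). Het-NTD against Het also had no member called (edgeR, 0.014% of all genes). An unadjusted edgeR p under 0.05 was reached by 8 members (6.26% of all genes), and DESeq2 called 0 (0.154%). There 34 of 40 were above 0, the median log2 fold change was 0.10 against 0.00 over all genes, and 14 members lay above Het without overlap (8.16% of all genes).

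The lowest p-values in Het-NTD against Het were those of Bnip3l at 82.0, 83.0 and 78.5 CPM against 72.8, 69.4 and 73.6 CPM (1.13-fold, edgeR adjusted p = 0.584), Tpi1 at 695, 694 and 666 against 646, 596 and 590 CPM (1.12-fold, edgeR adjusted p = 0.735) and Hif1a at 334, 366 and 305 against 312, 302 and 275 CPM (1.13-fold, edgeR adjusted p = 0.751). Bnip3l and Tpi1 did not overlap, and Hif1a did. These libraries labelled Het also served in the comparison with WT, so the 2 results share them. The difference of the NTD effects between Het and WT called no member and no gene at all (0%, edgeR). Its median log2 difference was 0.08, with 4 members at an unadjusted edgeR p under 0.05 (4.97% of all genes). DESeq2 called 0 members (0.028% of all genes). Bnip3l had the lowest p there (log2 difference 0.23, SE 0.06, edgeR adjusted p = 0.892), followed by Pfkp (0.20, SE 0.07) and Tpi1 (0.21, SE 0.08) at the same adjusted p.

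In experiment 1 the libraries labelled KO, in which Foxm1 was not lower, differed from WT in 1 member. Emb was at 79.1, 70.8 and 78.4 CPM against 32.2, 41.0 and 39.0 CPM in WT. All 3 values were above all WT values, and the ratio was 2.03 (1.6 to 2.58, edgeR adjusted p = 0.0305), where 0.447% of all genes passed and 0.124% as higher. Without any 1 of the 6 libraries Emb no longer passed (edgeR adjusted p 0.0508 to 0.127) with log2 fold changes of 0.93 to 1.09. Car9 was at 4.60, 3.73 and 3.16 CPM against 1.22, 0.885 and 1.79 CPM, 2.95-fold (1.88 to 4.62) without overlap, but did not pass (edgeR adjusted p = 0.0707). Adm was at 95.3, 66.6 and 68.4 against 51.1, 60.7 and 58.6 CPM, 1.35-fold (1.03 to 1.78, edgeR adjusted p = 0.368). In all, 6 members lay above WT without overlap (Hif1a, Pfkm, Emb, P4ha2, Adm and Car9, against 8.47% of all genes). Eno2 lay below WT (8.87% of all genes), and DESeq2 called 2 members (3.25% of all genes).

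For most other members the values in KO split by library. Library 1 was the highest of the 3 KO libraries in 35 of the 40 genes (87.5%, against 40.2% of all genes). Egln3 was at 27.3 CPM there and at 7.72 and 7.52 CPM in KO libraries 2 and 3, against 10.4 to 12.4 CPM in WT. Slc16a3 was at 310 CPM there and at 128 and 126 CPM in the other KO libraries, against 136 to 160 CPM in WT, and Bnip3 at 106 CPM against 46.1 and 44.7 CPM (42.2 to 47.0 CPM in WT). Library 1 was therefore above WT in all 3 genes, and libraries 2 and 3 were below WT in Egln3 and Slc16a3. The median coefficient of variation over the 40 genes was 18.9% in KO and 4.43% in WT. In KO it was 7.66% over all genes with a mean log2 CPM above 1, a filter not applied to the 40. With library 1 the median log2 fold change of the 40 genes was 0.131 with 33 above 0 (0.01 over all genes), and without it -0.016. The low macrophage sum and high muscle sum of library 1 are given above, and their part in its values was not tested.

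**Figure D5:**
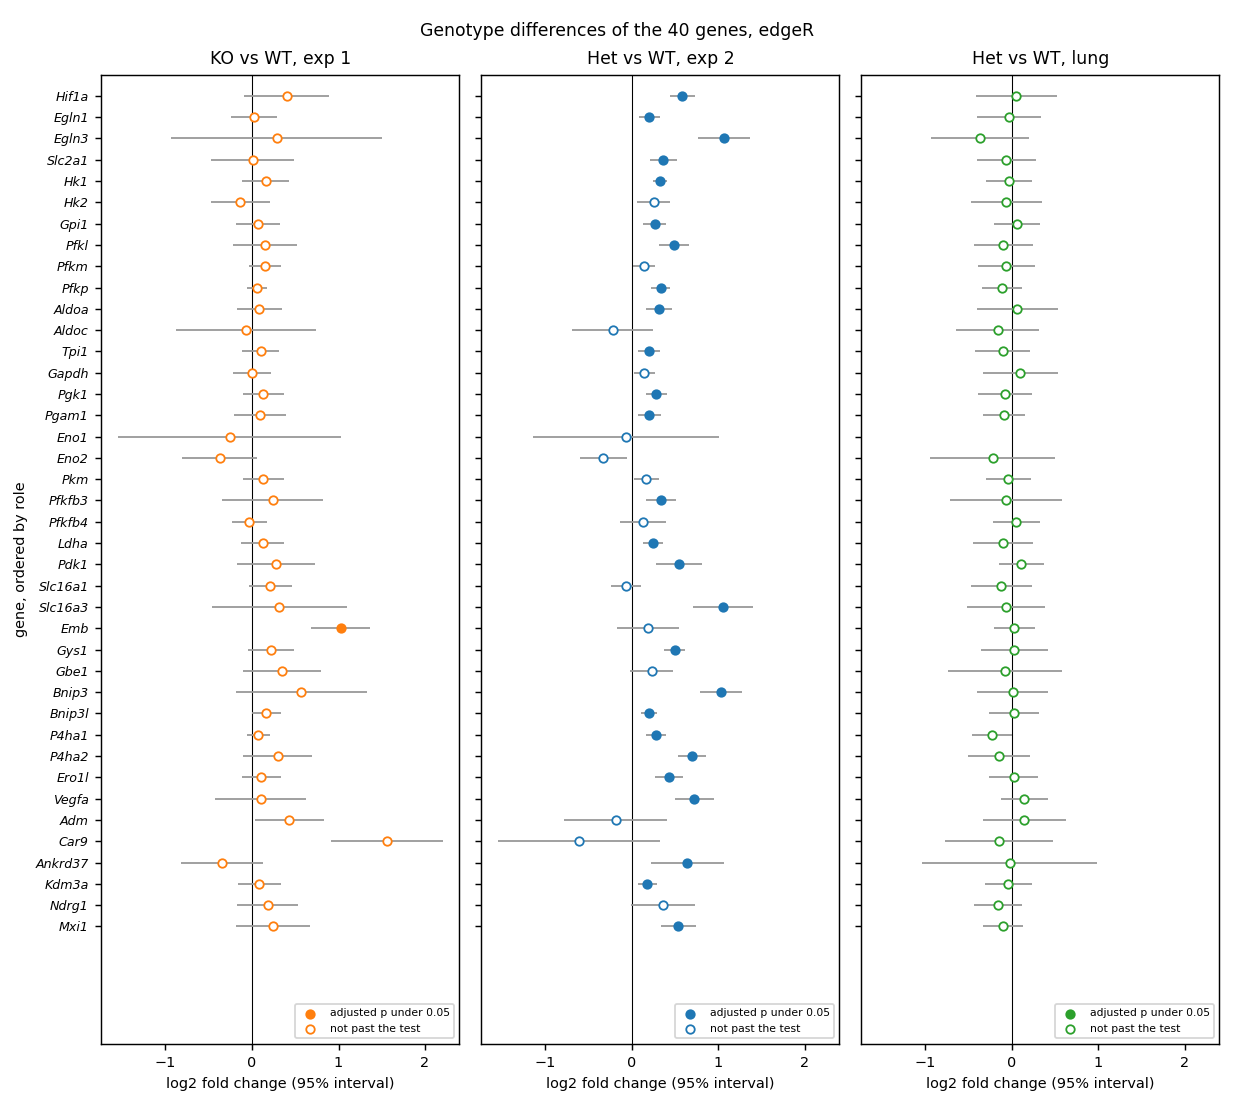
Log2 fold change of each of the 40 genes with its 95% interval (edgeR) in KO against WT of experiment 1, Het against WT of experiment 2 and Het against WT in lung; filled points passed the test. Filled points number 1, 26 and 0, and the intervals in experiment 1 are wide where library 1 of KO departs from the other 2, as for Egln3.

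KO-NTD had no member called against WT (edgeR, 0.44% of all genes called). This comparison had 8 members at an unadjusted edgeR p under 0.05 (12.1% of all genes) and 1 called by DESeq2 (2.76%). Its median log2 fold change was 0.21, 34 of 40 were above 0, and 21 members lay above WT without overlap, where 10.2% of all genes did. Library 2 of KO-NTD was the highest of its group in 32 of 40 genes (80%, against 32.9% of all genes), and without it the median was 0.15. Emb was at 42.5, 62.1 and 60.5 CPM (1.47-fold over WT, 1.16 to 1.86, edgeR adjusted p = 0.219), Bnip3l at 88.0, 79.1 and 83.2 CPM against 70.2, 66.3 and 73.3 CPM (1.19-fold, 1.06 to 1.34, edgeR adjusted p = 0.248) and Car9 at 2.10, 2.38 and 2.96 CPM (1.91-fold, 1.22 to 2.99, edgeR adjusted p = 0.268). Against KO, no member was called either (edgeR, 0.00687% of all genes). There was 1 member at an unadjusted edgeR p under 0.05 (6.68% of all genes), and DESeq2 called 0 (0.186%). Emb was 0.723-fold of KO (0.572 to 0.915), Car9 0.648-fold (0.418 to 1.003) and Adm 0.774-fold (0.589 to 1.02), each with an edgeR adjusted p of 0.714. The median of KO-NTD against KO was 0.096, but 0.252 without KO library 1 and 0.048 without KO-NTD library 2.

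The KO effect of experiment 1 minus the Het effect of experiment 2, in a joint fit of 12 libraries, had a median log2 difference of -0.19, and 34 of 40 genes were below 0. No member passed (edgeR, 0.324% of all genes). There were 8 members at an unadjusted edgeR p under 0.05 (16.5% of all genes), and DESeq2 called 4 (5.02% of all genes). Emb came closest, at a log2 difference of 0.82 (SE 0.19, edgeR adjusted p = 0.0836), followed by Pfkp at -0.29 (SE 0.08, edgeR adjusted p = 0.12) and Car9 at 2.17 (SE 0.62, edgeR adjusted p = 0.132). Without KO library 1, 18 members passed, 1 higher and 17 lower, and the median was -0.31 (-0.021 over all genes). How many of all genes passed in that fit was not counted, so no share stands beside the 18. Experiment and label cannot be told apart here.

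In whole lung none of the 39 members tested differed between libraries labelled Het and WT, and neither did any gene (0%, edgeR). At an unadjusted edgeR p under 0.05 there were 0 members (0.715% of all genes), and DESeq2 called 0 (0.00628%). The median log2 fold change was -0.06, with 13 of 39 above 0. P4ha1 came closest, at 72.6, 71.5 and 69.6 CPM in Het and 88.3, 82.0 and 79.9 CPM in WT, 0.854-fold (0.729 to 1.001) without overlap. Egln3 was at 8.46, 8.78 and 7.72 CPM against 8.21, 14.8 and 9.27 CPM, 0.774-fold (0.524 to 1.14), and Ndrg1 at 32.2, 32.6 and 29.5 against 35.7, 38.1 and 31.6 CPM, 0.896-fold (0.737 to 1.09). Both overlapped WT, and all 3 had an edgeR adjusted p of 1. The muscle marker sum was 6.87 CPM in WT lung library 1 and 483 and 652 CPM in the other WT lungs, and leaving out any 1 lung kept the median between -0.079 and -0.029. The common biological coefficient of variation was 0.255 over all genes in lung and 0.114 in fibroblasts of experiment 2. The median coefficient of variation over the 40 genes was 6.64% in WT and 11.7% in Het lungs, and 9.89% in WT and 5.39% in Het fibroblasts of experiment 2.

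The Het effect in lung minus that in fibroblasts, from 1 model over both tissues, was below 0 in 36 of 40 genes, with a median log2 difference of -0.32. P4ha2 passed: it was 0.561-fold (0.430 to 0.732, edgeR adjusted p = 0.0493, where 1.12% of all genes passed and 0.312% as lower). In lung P4ha2 was at 26.9, 26.5 and 19.2 CPM in Het and at 26.0, 27.3 and 27.1 CPM in WT. The call held without WT fibroblast library 1, Het lung library 1 or Het lung library 3, and was lost without any 1 of the other 9 libraries (edgeR adjusted p 0.0132 to 0.125 over all 12) and in the fit with a replicate block (edgeR adjusted p = 0.164), while its log2 difference stayed between -0.93 and -0.71. Egln3 at -1.43 (SE 0.31), P4ha1 at -0.49 (SE 0.11) and Bnip3 at -1.01 (SE 0.22) came next, with edgeR adjusted p of 0.0514 to 0.053. DESeq2 called 8 members, all lower, where it called 4.49% of all genes in either direction.

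Between tissues, WT lung differed from WT fibroblasts of experiment 2 in 35 of 40 genes, 25 lower and 10 higher in lung (87.5%, where 75.6% of all genes passed edgeR's test, 41.5% higher and 34.1% lower). The share is close to that of all genes, but the median log2 fold change was -1.08 against 0.14 over all genes. In lower glycolysis 6 genes were lower, leaving out Eno1, which is among the 25 but had at most 2 counts in any WT lung library, and in upper glycolysis 7 of 9 were. P4ha1 was 0.214-fold (edgeR adjusted p = 9.03e-10), Pkm 0.121-fold (edgeR adjusted p = 9.03e-10) and Pgam1 0.167-fold of fibroblasts (edgeR adjusted p = 1.46e-09). Slc2a1 was 0.112-fold (edgeR adjusted p = 2.55e-09) and Pgk1 0.145-fold (edgeR adjusted p = 2.56e-09). In lung, Pkm was at 385, 382 and 393 CPM, Pgk1 at 137, 156 and 146 CPM, Pgam1 at 134, 150 and 141 CPM, Slc2a1 at 18.4, 25.0 and 22.1 CPM and P4ha1 at the values above. Vegfa went the other way: it was the highest member in lung per length, at 138 ± 1.83 RPKM (SD, n = 3), and 4.04-fold higher than in fibroblasts (edgeR adjusted p = 3.1e-08). Tissue and handling cannot be told apart, and the lung holds many cell types.

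Other genes of the same pathways, from lists that hold no member, did not share 1 direction in Het against WT of experiment 2, in which macrophage markers were lower. Over all genes, 7.89% were called higher and 8.61% lower in this comparison. Of 9 HIF subunits and regulators, 3 were lower (33.3% called) and none higher. Epas1, the alpha subunit of HIF-2, was at 4.78, 6.30 and 6.32 CPM against 13.1, 9.30 and 7.96 CPM (0.573-fold, 0.422 to 0.777), Hif1an, the asparaginyl hydroxylase that inhibits HIF, was 0.859-fold, and Hif3a, at most 0.579 CPM, was also lower. The partner subunit Arnt, at 81.0 to 85.1 against 74.8 to 80.3 CPM, did not pass. Of 21 tested other isoforms and pyruvate enzymes, Bsg (basigin, the partner of MCT1 and MCT4) was 1.15-fold higher, and Slc2a4, Hk3, Eno3 and Pdha1 were lower (23.8% called). Hk3 was at 0.150 to 0.663 CPM against 1.75 to 2.47 CPM. In glycogen turnover, Pygl, the liver phosphorylase, was at 16.7, 14.3 and 13.7 CPM against 5.87, 4.24 and 4.24 CPM (3.11-fold) and Pgm2 was 1.36-fold higher, while Pygb, the brain phosphorylase, was at 76.3, 78.4 and 76.0 against 147, 164 and 133 CPM (0.520-fold).

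Of 30 further genes listed as HIF targets, 10 were higher and 1 lower (36.7% called, against 16.5% of all genes). Their median log2 fold change was 0.14, and whether each of them answers to HIF in these cells was not tested. Stc2 (stanniocalcin 2) was at 27.9, 25.1 and 26.4 CPM against 15.9, 16.1 and 14.9 CPM (1.69-fold), Fam162a at 100.1, 91.2 and 93.6 against 68.5, 60.4 and 68.7 CPM (1.44-fold), and Upk1b at 2.58, 1.53 and 1.53 against 7.68, 6.88 and 8.42 CPM (0.247-fold). The others that rose were Ddit4, Bhlhe40, Ak4, Kdm4b, Plod1, Hmox1, Ccng2 and Mif. In the pentose phosphate pathway 2 of 7 were higher (Pgls and Tkt; 28.6%), and in gluconeogenesis 0 of 3. In experiment 1 the only list gene called was Arnt2, at 14.7, 15.8 and 14.9 CPM in KO-NTD against 23.4, 20.9 and 21.4 CPM in WT (0.692-fold), and in lung Het against WT none was.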

How the data were processed

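Bulk RNA was sequenced in 27 libraries of 9 groups, 3 per group, grouped by the genotype label, the tissue and the numbered experiment. The authors deposited raw read counts per gene symbol in 1 table of 24062 symbols. The submitters' processing notes list the build mm10 and, without roles, the tools Subread, featureCounts 1.4.6, Bowtie2 2.2.6 and TopHat2 2.0.14. Which annotation and strand option were used for counting is not given in the sources used here. Libraries came from about 200 ng of RNA with the TruSeq RNA kit v2, per the labels' protocols, and that kit keeps no strand.

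Separate models were fitted to experiment 1, experiment 2 and the lungs in R 4.3.3 with edgeR 4.0.16 (filterByExpr by group with a minimum count of 10, TMM scaling, robust quasi-likelihood F test, two-sided, Benjamini-Hochberg adjustment over all genes tested, threshold 0.05). The fits held 14551 genes in 9 libraries (experiment 1), 14314 genes in 12 (experiment 2) and 15933 genes in 6 (lung). Differences between tissues or experiments came from joint fits of 12 libraries. DESeq2 1.42.0, size factors by relative log expression, no filter, a replicate block, the 2 groups alone and each left-out library were alternatives. The code was tested on simulated counts. No 2 replicates agreed within counting error, the least chi-square per degree of freedom being 5.65.

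The 40 members and the other lists were chosen with earlier results of these data known. Values in every library were given for up to 10 members with the lowest adjusted p in a main comparison and up to 5 in a secondary one (the 3 lowest p where none passed), and for up to 3 genes of each other list in Het against WT of experiment 2. Other members and genes were described by role after their values were seen. Exon lengths and coordinates are from GENCODE M21, promoters from RefSeq. The result of 1 gene of the glycogen turnover list, and that list's counts, are not reported here.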

Additional observations from a re-analysis of the deposited data

Results flagged for a closer look

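P4ha2, a collagen prolyl hydroxylase, passed the test of a different Het effect in lung and in fibroblasts by a narrow margin: the log2 fold change in lung minus that in fibroblasts was -0.83 (SE 0.18, edgeR adjusted p = 0.0493, interaction test in a joint fit of 12 libraries). The call was lost without any 1 of 9 of the 12 libraries and with a replicate block (edgeR adjusted p = 0.164). It was higher in 3 of 3 fibroblast libraries labelled Het than in any WT fibroblast library, and the lung groups overlapped.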

How the results depend on the processing

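Of the values of named members under other settings, 478 kept their direction and their side of the threshold, 6 passed only under the alternative, 16 passed only as reported and 0 reversed. With DESeq2 the members called numbered 2 in KO against WT (3.25% of all genes) and 1 in KO-NTD against WT (2.76%). They numbered 8 in the lung minus fibroblast Het effect (4.49% of all genes) and 4 in the KO minus Het effect (5.02%). The lung minus fibroblast count was 4 with size factors by relative log expression and 3 with no filter on low counts. Het against WT of experiment 2 called 17 with the 2 groups fitted alone. Leaving out 1 library at a time gave 0 to 0 called in KO against WT, 20 to 27 in Het against WT and 22 to 27 in Het-NTD against WT-NTD. It gave 0 to 9 in the lung minus fibroblast Het effect (7 without WT fibroblast library 1, 9 without Het lung library 3) and 0 to 18 in the KO minus Het effect (18 without KO library 1). A fit that leaves 2 libraries in a group has less power by construction. The shares of all genes passing in these other edgeR fits were not counted. The cause of the other shifts was not tested. Low counts limit Car9, Aldoc and Ankrd37. Those of Eno1 are lower still, but 72.2% of its 50-base stretches recur in other genes. How its reads were split is not known, so its low count is not put down to depth.

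Same-numbered libraries did not deviate together: no pair of groups had every correlation over 0.1, so the replicate numbers are not taken as pairs. With a replicate block 28 members were called in Het against WT, 30 in Het-NTD against WT-NTD, 31 in WT lung against fibroblasts, 1 in KO against WT and 0 in the lung minus fibroblast effect.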

Other observations

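Eno1b, a symbol outside the 40 genes, was chosen after its values were seen. Among the genes that share 50-base stretches with the member Eno1, it is the only symbol of the count table. How reads were split between Eno1 and Eno1b is not known, so the counts of Eno1b are uncertain too. Eno1b was listed at 18374 counts in library 1 of Het, 10572 in library 1 of Het-NTD and 19439 in library 2 of Het-NTD. In the other 9 libraries of experiment 2 it was at 563 to 846 counts. In experiment 1 it was at 900 to 1367 counts and in lung at 48 to 100. The ratio of the third to the fourth highest library, 11.5, was the largest of 12299 genes with a mean of at least 1 CPM in experiment 2, where the next was 3.98. This ratio follows the split of 3 high libraries already seen in Eno1b, so its rank only describes that split. All 3 high libraries carry a Het label, but library 3 of Het-NTD and libraries 2 and 3 of Het were not among them, and none of the 6 WT and WT-NTD libraries was.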
